A study of Mus musculus with 6 samples.

Results

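The members described here are the array's probes for candidate long intergenic noncoding RNAs, chosen as all non-control probes whose gene name begins with lincRNA or is only a chromosome range. No name began with lincRNA, so all 16194 members, of 55681 non-control probes (29.1%), are named by a range such as chr3:137736327-137752677_R, where the last letter gives the strand. They belong to 4610 ranges with strand, or 3543 loci when strand is ignored, with a median of 3 and at most 10 probes per range. RNA came from inguinal fat, the subcutaneous depot of the groin, of male C57BL/6J mice, and 1 Agilent 1-colour array was hybridised per sample. The 3 DIO_CR_WR samples come from mice that became obese on a diet, were restricted in calories and regained weight. Per the labels' protocol, mice aged 2 months received a high-fat diet with 60% of energy from fat for 1 month and were then restricted, for about 3 weeks, to the weight of chow-fed mice of the same age. They then returned to the high-fat diet. The protocol calls these mice DIO and its control mice, which had chow until that last period, CTR, and both groups ended on the high-fat diet. The sample titles instead read DIO_CR_WR and DIO. The titles are followed here, and the samples titled DIO are taken to be the CTR mice, which the labels do not state outright. The labels give ages of 6 to 8 months for DIO and 9 to 11 months for DIO_CR_WR, which do not overlap. These run in steps of 1 month from sample to sample, and whether they are measured ages cannot be told from the labels. Nothing in the labels says how many mice gave each sample, so the spread between samples may in part be technical.

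Long intergenic noncoding RNAs are transcripts from between the protein-coding genes, many of them capped, spliced and polyadenylated but with no long open reading frame. They tend to be less abundant and more restricted to a tissue than messenger RNAs, and some act on neighbouring genes while others act elsewhere in the nucleus or the cytoplasm. In fat, such RNAs are known to take part in adipocyte differentiation and in the response to cold. In a bulk sample, fewer cells of a type and less RNA per cell cannot be told apart.

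All members are 60-mers and no 2 share a sequence, but 721 overlap another member on the same strand, so neighbouring probes of a range are not independent readings of different RNAs. Positions are on mm9, as the array files give them, and placement in exons or introns was not analysed here. The sequences below are those of probes that the results turn on, read from the array files, 5′ to 3′, with G and C in capitals because the difference between the groups varied with the share of these bases.

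The first pair are the higher members with the smallest p.
A_30_P01021141, chr1:141827358-141827417, forward strand: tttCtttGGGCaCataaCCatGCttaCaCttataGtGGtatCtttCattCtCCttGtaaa
A_30_P01033235, chr1:87345173-87345232, reverse strand: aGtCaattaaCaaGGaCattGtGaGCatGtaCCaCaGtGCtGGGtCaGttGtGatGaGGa
The next 3 are lower members, those on chromosome 3 from a locus where probes of both strands were lower.
A_30_P01026396, chr3:137742528-137742587, reverse strand: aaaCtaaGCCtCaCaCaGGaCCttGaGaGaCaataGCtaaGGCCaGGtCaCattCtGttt
A_30_P01019334, chr3:137744283-137744342, forward strand: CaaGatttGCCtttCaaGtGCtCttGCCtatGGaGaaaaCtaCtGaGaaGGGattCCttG
A_30_P01026792, chr17:15373130-15373189, reverse strand: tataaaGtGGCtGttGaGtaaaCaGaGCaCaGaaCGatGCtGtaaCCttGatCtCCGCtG
The next 4 tile 1 short stretch on both strands.
A_30_P01026359, chr16:89963505-89963564, forward strand: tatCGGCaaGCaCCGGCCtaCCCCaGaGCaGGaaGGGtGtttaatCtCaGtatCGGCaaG
A_30_P01019800, chr16:89963501-89963560, reverse strand: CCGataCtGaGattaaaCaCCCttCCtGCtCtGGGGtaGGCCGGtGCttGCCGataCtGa
A_30_P01026832, chr16:89963529-89963588, forward strand: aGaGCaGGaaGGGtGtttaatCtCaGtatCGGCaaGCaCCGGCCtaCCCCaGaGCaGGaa
A_30_P01030955, chr16:89963529-89963588, reverse strand: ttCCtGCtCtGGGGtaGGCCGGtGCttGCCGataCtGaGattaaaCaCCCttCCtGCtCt
The last is the member with the highest mean signal, in which 83.3% of the bases are G or C.
A_30_P01031448, chr14:78936616-78936675, forward strand: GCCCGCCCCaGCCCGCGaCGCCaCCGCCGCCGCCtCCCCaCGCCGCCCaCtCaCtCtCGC

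The adipocyte genes Adipoq, Lep, Plin1 and Fabp4, which mark the labelled tissue, were well above background on all 6 arrays. The arrays lie on 2 slides: slide 1 holds DIO replicate 1 and all 3 DIO_CR_WR arrays, and slide 2 holds DIO replicates 2 and 3. The 95th percentile of the negative control spots lay between 11.1 and 15.2 units of processed signal in DIO, and was 334, 195 and 44.96 in DIO_CR_WR. The members' medians also divided by slide. The median log2 level of the tested members was -3.80 on DIO replicate 1, against -3.81 to -3.83 on the DIO_CR_WR arrays beside it, and -3.41 and -3.45 on DIO replicates 2 and 3. A level here is log2 of the processed signal minus the 75th percentile of that array, so 0 is the 75th percentile of all its spots, and levels are not compared between probes. With 3 arrays per group, the number of arrays limits the precision.

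Detection was lower for members than for the other probes on every array, and lower in DIO_CR_WR than in DIO. On the DIO arrays 55.6%, 71.4% and 69.5% of members were well above background (65.5% ± 8.64, SD, n = 3), and on the DIO_CR_WR arrays 32.5%, 46.1% and 51.5% (43.4% ± 9.76, SD, n = 3). The ranges of the 2 groups do not overlap. Among the other probes the shares were 73.4% to 82.5% in DIO and 59.5% to 71.6% in DIO_CR_WR. On all 6 arrays 4815 members (29.7%) were detected, and on none 3682 (22.7%), against 57.6% and 13.8% of the other probes. Among probes with no outlier flag, 819 members (5.12%) were detected on all 3 DIO arrays and no DIO_CR_WR array, against 2.59% of the other probes, and 0 showed the reverse pattern in either set. The higher level of the negative controls on the DIO_CR_WR arrays moved with this difference, and its part in it was not tested. Counted instead as signal above the 95th percentile of each array's negative controls, 74.0%, 84.7% and 82.7% of members were detected in DIO and 35.3%, 42.8% and 63.7% in DIO_CR_WR.

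Detection varied with the distance of a probe from the 3′ end of its range and with the length of the range. Of members within 500 bases of the 3′ end of their range, 59.7% were detected per DIO array and 36.6% per DIO_CR_WR array. At 10 to 20 kb from that end the shares were 69.5% and 48.2%. For ranges up to 1 kb long the shares were 53.7% and 30.3%, and for ranges of 10 to 30 kb they were 69.9% and 48.4%. Distance and length go together, since a probe 10 to 20 kb from the end can lie only in a range over 10 kb. Their parts were not separated. The polyadenylation signal AATAAA, searched as written in the probe's own strand only, was in 3.92% of members and 12.6% of the other probes. Detection was higher at a higher share of G and C, from 48.5% of members per DIO array at up to 35% G and C to 99.4% at over 60%, and from 35.3% to 91.6% per DIO_CR_WR array. The 2 strands were alike in the count of probes and in detection, with 65.9% of 8171 forward and 65.1% of 8010 reverse members detected per DIO array.

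In the comparison of DIO_CR_WR with DIO, 9210 members in 3755 ranges passed the filter of signal well above background on at least 3 of 6 arrays with no outlier flag. The remaining 6800 were too dim and 184 carried an outlier flag. By limma, with Benjamini-Hochberg adjustment over all 38460 probes tested, 0 members passed an adjusted p of 0.05, the background over all probes being 0% called, and the smallest adjusted p was 0.119. At an unadjusted p under 0.05, called higher or lower from here on, 282 members (3.06%) were higher and 2710 (29.4%) were lower in DIO_CR_WR. Over all probes tested, 26.1% were called in either direction, 5.34% higher and 20.8% lower. The filter feeds 1 direction: 819 tested members passed through the DIO arrays alone, 479 of them called lower and 1 higher, and 0 passed through the DIO_CR_WR arrays alone. The excess of lower calls is thus in part built in. With no filter on dim probes 2657 members (16.6%) were higher and 2250 (14.1%) lower, against 14.1% and 11.5% of all probes. With signal required on all 6 arrays 267 (5.61%) were higher and 1324 (27.8%) lower, against 7.86% and 19.4% of all probes. The arrays of the 2 groups did not overlap for 393 members higher (4.27%, background 7.29%) and 2896 lower (31.4%, background 25.6%), the background in either direction being 32.9%. The median log2 fold change was -0.35 for members, with quartiles of -0.71 and 0.02, and -0.19 for all probes tested. A fitted difference of at least 2-fold was seen for 216 members higher (2.35%) and 968 lower (10.5%), and for 2.90% and 6.26% of all probes tested.

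These counts depended on single arrays and on the scaling. With slide as a block, 232 members were higher (2.52%) and 656 lower (7.12%), against 4.44% and 5.63% of all probes. The median was -0.16 for members and -0.095 for all probes, and the block rests on DIO replicate 1 alone. On slide 1 alone, where DIO replicate 1 is the only DIO array, these medians were the same. All 2710 lower and all 282 higher members kept their sign on slide 1, whose 4 arrays are also in the full fit, and 405 (14.9%) and 81 (28.7%) of them also kept their call. Without DIO replicate 1, 1805 members (19.6%) passed an adjusted p of 0.05, of which 1624 were lower and 181 higher, as did 14.0% of all probes. That fit leaves DIO on slide 2 alone and DIO_CR_WR on slide 1 alone, so group and slide cannot be told apart in it. Without DIO replicate 2, 147 were higher and 1211 lower, and 1636 were lower without DIO replicate 3 and 1747 without DIO_CR_WR replicate 1. Scaled to the E1A spike-in probes, 1096 members were higher (11.9%) and 549 lower (5.96%), against 18.6% and 3.42% of all probes. Of the members' calls 66.6% were then higher in place of 9.43%, and of the calls over all probes 84.5% in place of 20.5%. That scaling moved the median of all probes from -0.19 to 0.27 and that of members from -0.35 to 0.11. It adds 1 constant per array, so the gap between members and other probes is the same by construction.

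Relative to other probes of like brightness, members were also lower. In the first 9 of 10 brightness classes the members' median log2 fold change was 0.05 to 0.30 below that of the other probes, and in the brightest class it was 0.03 above. With slide as a block the median was 0.03 to 0.19 below in the first 9 classes and 0.01 above in the last. The size of the difference followed base composition in both sets. The members' median was 0.00 at up to 35% G and C, -0.34 at over 40 to 45%, -0.55 at over 55 to 60% and -0.67 at over 60%. The other probes had 0.04, -0.18, -0.37 and -0.54 in these classes. Members called higher had a median of 38.3% G and C and members called lower 45%. Across the 9210 tested members, the correlation between G and C share and log2 fold change was -0.29, and -0.10 with slide as a block. Across the 29250 other probes it was -0.27 and -0.06. Probes share arrays and are no independent replicates, so these values are a description. On DIO replicate 1 the members over 60% G and C lay 0.02 below their own mean over the 6 arrays, on the other DIO arrays 0.49 and 0.52 above it, and on the DIO_CR_WR arrays 0.19 to 0.47 below it. When brightness class and G and C class were held together, members were lower than the other probes in 43 of 53 cells with at least 30 probes of each kind, and in 47 with slide as a block. The median difference over cells was -0.08 and -0.10.

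The higher members led with a range on chromosome 1, chr1:141824450-141835125_F. Its probe A_30_P01021141 had log2 levels of -3.37, -3.58 and -4.05 in DIO and -1.86, -2.02 and -1.55 in DIO_CR_WR. The groups did not overlap, and the log2 fold change was 1.86 (SE 0.24, unadjusted p = 0.000145, adjusted p = 0.119 by limma). Of the 5 probes of this range, 4 were higher, with values up to 1.94, and 1 was at -0.22. The nearest named gene on the array by probe position was Cfhr2, a complement factor H-related gene, 109 kb away at 0.93 (unadjusted p = 0.0053 by limma). Levels of A_30_P01033235, in chr1:87343550-87362900_R, were -2.17, -2.59 and -2.14 in DIO and -0.80, -0.76 and -1.05 in DIO_CR_WR. It was 2.69-fold higher, while the other tested probe of the same range was at -0.87, so the 2 probes of this range did not move together.

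The other higher members by the rule lay in 8 further ranges, with log2 fold changes of 0.90 to 1.60. In chr17:80133213-80144417_F both tested probes were higher, at 1.36 and 1.41, and Cyp1b1, a cytochrome P450 of steroid and xenobiotic metabolism, was 37.8 kb away on the opposite strand at 0.78. In chr7:128341797-128414692_F 4 of 5 probes were higher, the leading one at 1.15 and the remaining one at -0.75, and the nearest gene, Otoa, had a log2 fold change of -1.19. In chr1:175705225-175717250_F 4 of 5 were higher, the leading one at 1.23, and the nearest gene was Ifi204, of the interferon-inducible family, 33.3 kb away at 0.22. The range chr2:128137419-128141735_R lies 4.50 kb from the probe for Morrbid, a long noncoding RNA known for the survival of short-lived myeloid cells, on the same strand. Its leading probe had levels of -5.65, -6.56 and -6.01 in DIO and -4.70, -4.49 and -4.64 in DIO_CR_WR, where 2 of 3 arrays were well above background. The groups did not overlap, and 2 of its 3 probes were higher. Morrbid's own probe was not tested. No marker list of short-lived myeloid cells was used. The macrophage marker list, for other myeloid cells, had mean levels of 0.88 to 1.72 in DIO and 1.74 to 1.90 in DIO_CR_WR. Of its 6 genes 3 were higher, with a median log2 fold change of 0.55. The T cell, NK cell and B cell lists had higher medians, and the endothelium list did not. For T cells it was 1.20, with 4 of 7 genes higher and 1 lower. For NK cells it was 1.104 with 4 of 5 higher, and for B cells 1.21 with 1 of 4 higher. For endothelium it was 0.41, with 2 of 4 higher. All 6 macrophage, all 7 T cell and all 4 endothelium genes were well above background on all 6 arrays. Only 3 of 5 NK cell and 1 of 4 B cell genes were. Over all probes tested 5.34% were higher and 20.8% lower. The part of these cells in the result was not tested.

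In the remaining 4 of these ranges fewer of the probes were higher. The range chr2:153163620-153170845_R had 2 of 9 higher, the leading one at 1.60. One of 5 was higher in chr6:4841700-4847400_F, at 0.90, where the nearest gene was the imprinted Peg10, 133 kb away at 0.83. One of 5 was higher in chr3:90425270-90435820_F, at 1.03, near the calcium-binding protein gene S100a6, which was at 0.05. In chr4:146345650-146356650_R 1 of 2 was higher, at 1.23.

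The lower members led with a locus on chromosome 3 at which 3 named ranges overlap. A_30_P01026396, of chr3:137736327-137752677_R, had levels of -2.94, -2.75 and -3.05 in DIO and -5.10, -5.03 and -4.54 in DIO_CR_WR, with 2 of 3 DIO_CR_WR arrays well above background. The groups did not overlap, and the log2 fold change was -1.98 (SE 0.21, unadjusted p = 4.6e-05, adjusted p = 0.119 by limma). All 5 reverse probes of the range were lower, between -1.98 and -1.26. On the forward strand 4 of 5 were lower, and both probes of the range chr3:137742666-137744470_F inside it were lower. A_30_P01019334 of that range had levels of 1.73, 1.94 and 1.45 in DIO and 0.34, -0.08 and 0.11 in DIO_CR_WR, a 2.99-fold difference. Its log2 fold change on slide 1 alone was -1.60, close to the -1.58 over all arrays. It lies 0.06 kb from a probe for 1110002E22Rik on the same strand, annotated as protein-coding, whose log2 fold change was -1.24 (unadjusted p = 0.0047 by limma). Whether the forward probes read a transcript of their own or that of this gene cannot be told apart here.

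At chr17:15357376-15385701 all 5 reverse probes were lower, between -2.03 and -1.11. A_30_P01026792 of that range had levels of -4.31, -3.95 and -4.53 in DIO and -6.48, -6.59 and -5.82 in DIO_CR_WR, with 1 of 3 DIO_CR_WR arrays well above background. The groups did not overlap. The nearest gene was the long noncoding RNA Gm5091, on the same strand, at -1.01. A_30_P01032128, in chr11:53592946-53637922_F, had levels of -3.66, -3.37 and -3.86 in DIO. In DIO_CR_WR its levels were -6.41, -5.81 and -5.43, with 1 of 3 arrays well above background, so its fitted -2.25 rests in part on dim signal. The single probe of chr9:55921147-55921563_F was at -1.45, and the nearest gene, Rcn2, a calcium-binding protein of the endoplasmic reticulum, was at -0.02. The 1 tested probe of chr16:90103524-90104408_R was at -1.62.

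Members detected on every DIO array and no DIO_CR_WR array have only a bound for their difference. The bound sets the DIO mean against the dimmest signal called well above background on each DIO_CR_WR array, or the probe's own where that is higher. These values are averaged over the 3 arrays. The dimmest such levels were -4.27, -5.59 and -6.06 on DIO_CR_WR replicates 1, 2 and 3. On replicate 1 this floor lies above every DIO level of the members named in this paragraph, so non-detection there shows no difference. The members were chosen for this detection pattern, which fixes the direction. A_30_P01032779, in chr5:113594167-113645342_R, was at least 1.52-fold higher in DIO, with levels of -4.81, -4.65 and -4.59 there and -6.59, -6.63 and -6.00 in DIO_CR_WR. A_30_P01023846, in chr19:57426515-57435165_F, was at least 1.21-fold higher in DIO, and A_30_P01021969, in chr2:143963320-143984245_R, at least 1.08-fold. In chr10:62347876-62374346_F, 2 members of this class had as nearest genes Tet1, which encodes a 5-methylcytosine oxidase, at 47.2 kb and Slc25a16 at 52.7 kb. They were at least 1.19-fold and 1.33-fold higher in DIO. A_30_P01032695, in chr13:53100475-53113850_R and 50.9 kb from Nfil3, a transcription factor gene of circadian and immune regulation, was at least 1.11-fold higher in DIO.

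Of the members with the highest mean signal, 2 are given here. A_30_P01031448, 23.4 kb from Akap11, which encodes an anchor of protein kinase A, had levels of 4.70, 5.54 and 5.52 in DIO and 4.54, 4.57 and 4.62 in DIO_CR_WR. DIO replicate 1 lay beside the DIO_CR_WR arrays, and the log2 fold change of -0.67 became -0.12 on slide 1 alone. A_30_P01023587, in chrX:33750475-33770425_F, had levels of 4.73, 4.75 and 5.05 in DIO and 4.13, 4.07 and 4.26 in DIO_CR_WR, with no overlap. It was at -0.69 over all arrays and -0.57 on slide 1 alone, but at -0.29 with quantile normalization, -0.36 with normexp and quantile, and -0.23 with spike-in scaling. These settings gave -0.30, -0.38 and -0.21 for A_30_P01031448.

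Probes of 1 range agreed only in part. Of 1485 ranges with at least 3 tested probes, 608 had all values negative, 90 had all positive and 787 had both signs. The median SD of log2 fold changes within a range was 0.34, against an SD of 0.41 between the medians of ranges. In 41 ranges some probes were called higher and others lower. Every tested probe was called lower in 52 ranges and higher in 3, and 53 of these ranges are described here. With slide as a block every probe was still called in 8 of the 51 lower and 1 of the 2 higher. In chr3:18521534-18522194_R, for example, the median went from -1.25 to -0.18. The ranges named next were chosen from these after their values were seen.

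Some of the consistent ranges lie at or near genes of skeletal muscle, Mrln and Acta1, neither of which was itself called. All 3 probes of chr10:69679644-69682458_F were lower, with a median of -0.86 and -1.08 with slide as a block. Their median levels were 2.68, 2.39 and 2.09 in DIO and 1.62, 1.41 and 2.02 in DIO_CR_WR. A probe of the range lies 0.012 kb from the probe for Mrln on the same strand, so these probes overlap. Mrln encodes the muscle micropeptide myoregulin and was at -0.65 (unadjusted p = 0.0505 by limma). Whether the range reads a transcript of its own or that of Mrln cannot be told apart here. At chr8:126396600-126407275 all 3 forward and all 3 reverse probes were lower, with medians of -1.32 and -1.34. The skeletal muscle actin gene Acta1, 17.7 kb away, was at -0.53 (unadjusted p = 0.22 by limma). The reverse medians were -1.04, -0.89 and -0.94 in DIO and -2.61, -2.52 and -1.84 in DIO_CR_WR, with no overlap. The skeletal muscle list moved with them: its mean level was 3.90 to 4.30 in DIO and 3.37 to 3.77 in DIO_CR_WR. Of its 8 genes 3 were lower, against 20.8% of all probes tested. All 8 were well above background on all 6 arrays. The part of muscle RNA in these results was not tested.

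Other consistent ranges lay at noncoding genes or at coding genes of other kinds. At chr7:88668948-88678046 all 5 forward and all 3 reverse probes were lower, with medians of -0.83 and -0.96, and the long noncoding RNA 2900076A07Rik there was at -1.06. Its reverse probes had median levels of 0.42, 0.57 and 0.21 in DIO and -0.63, -0.50 and -0.55 in DIO_CR_WR, with no overlap. At chr3:145269449-145298239 all 3 probes of each strand were lower, with medians of -0.84 forward and -1.03 reverse, beside Znhit6, a gene of small nucleolar RNP assembly, at -1.04. The 3 tested of the 6 probes of chr11:16831925-16851121_R had a median of -0.90. One of them lies 0.003 kb from the probe for the long noncoding RNA gene Eldr on the same strand, which was at -0.69. All 5 probes of chr12:16833551-16901804_R, 34.2 kb from the transcription factor gene E2f6, had a median of -1.01. The widest range by tested probes was chr11:95627874-95640824_F, where 9 of 9 were lower with a median of -0.53. A probe of it lies 0.005 kb from that for Zfp652 on the same strand, which was at -0.30. The probes for Eldr and Zfp652 thus overlap a member of the range beside them. Whether these ranges read a transcript of their own or that of the gene cannot be told apart here. Higher throughout was chr9:96632664-96653249_R, with a median of 1.06, 2.39 kb from Zbtb38 on the same strand. Its median levels were -1.67, -1.34 and -2.05 in DIO and -0.67, -0.69 and -0.51 in DIO_CR_WR, while Zbtb38 was at -0.38. The other was chrX:50407969-50410370_R, with a median of 0.53, next to the long noncoding RNA C430049B03Rik at 0.46. A range and its nearest gene could also differ in sign: the 3 probes of chr1:84947500-85045150_R had a median of -0.78, while Slc16a14, of the monocarboxylate transporter family and 55.1 kb away, was at 1.56.

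Both strands were probed at 1067 loci. With detection on all 6 arrays required for at least 1 probe of a strand, both strands were detected at 472 loci, only the forward strand at 153, only the reverse at 183 and neither at 259. With 3 of 6 arrays sufficient, both were detected at 891. At the 887 loci where both strands were tested, the median log2 fold changes of the strands correlated at 0.36, or 0.35 with slide as a block. Both were negative at 610 and both positive at 72 loci. Where a forward and a reverse member overlapped by at least 30 bases, 862 pairs of 1676 had both tested, and 74.4% of those had the same sign, with a correlation of 0.42. Since 74.0% of all tested members were negative, many pairs share a sign whatever their position. Of the 1676 pairs, 96 are exact reverse complements.

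Of the 6 loci chosen for a difference between strands, the widest gap of medians was at chr16:89961600-89971725. The 3 forward probes were all lower, at -1.38, -2.11 and -2.51, and the 4 reverse probes were at -1.22, -0.47, -0.060 and 0.041, the first pair of them called lower. A_30_P01026359, forward, had levels of -0.64, 0.60 and 0.30 in DIO and -2.43, -1.95 and -1.68 in DIO_CR_WR. A_30_P01019800, reverse, overlaps it by 56 bases and had -3.81, -3.63 and -3.10 in DIO and -3.65, -3.22 and -3.55 in DIO_CR_WR, with overlapping groups. The exact reverse complements A_30_P01026832 and A_30_P01030955, printed above, gave -1.38 and -1.22, so at these 60 bases both strands were lower. With slide as a block the forward median was -1.21 and the reverse median -0.11. At chr12:88216447-88224965, beside Irf2bpl, the forward median was -0.92 and the reverse 0.34, and with slide as a block -0.41 and 0.55. One reverse probe there, A_30_P01026738, was higher at 0.65. The Irf2bpl probe nearest the reverse members was at -0.55 and the one nearest the forward members at -0.00076. At chr12:4554378-4560302 the single forward probe A_30_P01019164 was at 1.25 and the single reverse probe A_30_P01025127 at -0.18. The forward levels were 0.42, -1.72 and -1.90 in DIO and 0.06, 0.04 and 0.44 in DIO_CR_WR. DIO replicate 1 lay within the range of the DIO_CR_WR arrays, and on slide 1 alone the value was -0.24. These loci were chosen for the difference between strands, which is given as a description.

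Neighbouring genes were named through RefSeq for 31233 of 39430 other probes, and 6490 of 9132 mapped tested members had a tested gene probe within 50 kb. Over 2577 pairs of a range and its nearest gene within 50 kb, the log2 fold changes correlated at 0.12, and 58.1% of pairs had the same sign. The correlation was higher close to genes. Within 1 kb it was 0.43 for pairs on the same strand (n = 196) and 0.19 on opposite strands (n = 159). At 1 to 5 kb both were 0.19, at 10 to 50 kb they were 0.06 and 0.07, and at 50 to 100 kb 0.00 and 0.09. The members' median log2 fold change was -0.13 within 1 kb of a gene on the same strand and -0.50 at 50 to 100 kb. The pairs share arrays and some share a locus. Overlapping probes were not left out of the pairs within 1 kb, such as those at Eldr, 0.003 kb apart on the same strand. Such probes may read 1 RNA, and their part in the 0.43 was not tested.

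Of the gene lists of adipose and immune function, most had few members near them. Of 25 adipocyte genes only Pparg, the master regulator of adipocyte differentiation, had a tested member within 50 kb. That member, A_30_P01018402, had levels of 1.09, 1.16 and 1.30 in DIO and 0.65, 0.95 and 0.44 in DIO_CR_WR. It was lower by this fit at -0.50 (SE 0.19), and Pparg itself was at -0.44. Of the 8 members within 50 kb of Pparg, 3 were lower and 0 higher. The cytokine and chemokine list had 0 members within 50 kb, although 18 of its 25 measured genes were called. In the T and NK cell list only Cd69, a marker of lymphocyte activation, had members near it, 4 of 12 of them lower. The nearest, A_30_P01019906, was at -0.47 while Cd69 was at 0.93. Near the thermogenic list 1 of 3 members was lower, near the macrophage list 4 of 6, near the clock list 0 of 2 and near the development and fibroblast list 4 of 16, with 0 higher in each. Over all tested members 29.4% were lower, and these counts are too small to set apart from that share.

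The HOX and limb list, of genes that give fat depots their positional identity, had 22 members near 11 of its 45 genes on the array. Of these members 7 were higher and 5 lower, with a median of 0.38. Over all tested members 3.06% were higher and 29.4% lower, and over all probes 5.34% and 20.8%. The 22 members lie in only 7 ranges and are not independent readings. A_30_P01025215, which lies on the same strand as Hoxb4 and 7.13 kb from Hoxb5, had levels of -7.59, -6.55 and -6.14 in DIO and -6.47, -4.18 and -3.32 in DIO_CR_WR. The groups overlapped, 2 arrays of each group were well above background, and the log2 fold change was 2.11 (SE 0.82). The members A_30_P01030699, near Hoxb9, and A_30_P01022951, near the homeobox gene Emx2, were well above background on all DIO arrays and no DIO_CR_WR array. The levels were -6.38, -5.70 and -5.64 in DIO and -6.57, -7.31 and -7.16 in DIO_CR_WR for the first. For the second they were -6.05, -5.47 and -5.72 in DIO and -6.54, -6.54 and -6.35 in DIO_CR_WR. Their bounds were under 1, so no fold is given, while Hoxb9 itself was at 0.47 and Emx2 at 0.44.

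Named long noncoding RNAs on the same array gave a point of comparison. Of 57 probes for 12 such RNAs in the same probe set, NEAT1, NEAT2, TUG1 and H19 were detected with all their probes on all arrays. Of the 35 tested, 7 (20%) were called lower and 0 higher, against 20.8% and 5.34% of all probes. H19, an imprinted RNA, had a median of -0.75 with 2 of 5 probes lower, and KCNQ1ot1, a silencer of its imprinted domain, -0.80 with 3 of 4 lower, while another probe for it outside this set, Kcnq1ot1, was at -0.12. NEAT1, the scaffold of paraspeckles, was at 0.14 with 0 of 5 called. Of 47 listed long noncoding RNA genes, read by probes outside this set, 39 were on the array and 29 tested, of which 0 were higher and 4 lower. These 4 were Oip5os1 at -0.75, Mirg at -0.81, Mhrt at -1.22 and Snhg6 at -0.44, and the median of the list was -0.12. None of the 29 passed an adjusted p of 0.05 by limma.

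Members with signal on every array gave the only adjusted calls among members in the fits that used all 6 arrays. The fit was then limited to probes well above background on all 6 arrays. In it 6 of 4762 members (0.126%) passed an adjusted p of 0.05 by limma, as did 46 of 27366 probes in all (0.168%). Of these 6, 4 are forward probes of the chromosome 3 locus, at -1.58, -1.47, -1.41 and -1.38, and the other 2 are the leading higher members, at 1.86 and 1.43. Their adjusted p lay between 0.0478 and 0.0486, just under the threshold.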

How the data were processed

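The members and lists were chosen with earlier results of these data known. The authors deposited 1 scanner file per array. Its processed signal is an intensity, background-subtracted by Agilent Feature Extraction and not normalized between arrays, per the file headers; the version is 10.7.1.1 in the submitters' processing notes and 10.7.3.1 in the headers. The deposited files also give probe sequences, mm9 positions and flags. Each array was scaled to the 75th percentile of its non-control spots on the log2 scale. Every probe well above background on at least 3 of 6 arrays with no outlier flag was fitted with limma 3.58.1 in R 4.3.3 (lmFit, eBayes), with Benjamini-Hochberg adjustment over 38460 probes. The script was tested on simulated data. Named members were the 10 higher and 10 lower with the smallest p and no overlap, up to 6 detected in 1 group only, up to 8 of highest signal, 6 strand loci, and the nearest member to each listed gene; not every one is given a value of its own. Some members are not reported here, 2 ranges called lower or higher throughout among them. Nearby genes were named through RefSeq, with distances between probe centres. A whole-series table with 18 value columns was not used, since its column names do not settle the samples. Background correction, scaling, filter, variance model, slide, age label, replicate block and single arrays were varied.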

Additional observations from a re-analysis of the deposited data

How the results depend on the processing

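The count past an adjusted p of 0.05 stayed at 0 except as follows. It was 6 with signal required on all 6 arrays (0.126%, against 0.168% of all probes). With 1 array left out it was 0 to 1805. The 1805 (19.6%, against 14.0%) were without DIO replicate 1, a fit in which group and slide cannot be told apart. The count higher (282, 3.06%, against 5.34% of all probes) was 1096 with spike-in scaling (11.9%, against 18.6%) and 2657 with no filter on dim probes (16.6%, against 14.1%). It was 1021 with no filter and quantile normalization together, chosen after seeing the data (6.38%, against 7.50%). It was 74 with 1 probe per name (1.97%, against 5.43%) and 147 to 481 with 1 array left out (1.60% to 5.22%, against 3.00% to 8.77%). The count lower (2710) was 549 with spike-in scaling, 1324 with signal on all 6 arrays, 1293 with 1 probe per name, 656 with slide as a block, 516 on slide 1 alone and 1211 to 3517 with 1 array left out. The median of -0.35 was -0.18 with normexp and quantile normalization, 0.11 with spike-in scaling, -0.078 with no filter, -0.10 with no filter and quantile normalization, -0.16 with slide as a block and on slide 1 alone, -0.70 with the age label as a covariate and -0.45 to -0.30 with 1 array left out. One probe per name fits fewer probes; the other causes were not tested. Mean detection in DIO was 80.5% by the negative controls, in place of 65.5%. Loci with both strands detected were 891 in place of 472 with 3 of 6 arrays sufficient, and the correlation with neighbours was 0.19 within 10 kb in place of 0.12. The replicate numbers do not pair the samples, since same-numbered deviations correlated at 0.00, -0.13 and -0.21. With a replicate block 248 were higher (2.69%, against 4.71% of all probes), 2637 lower (28.6%, against 18.2%) and 0 passed the adjusted p.

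Of 735 values of 41 named members under these alternatives, 638 kept direction and side of the unadjusted threshold, 79 lost the call, 2 gained it and 16 changed sign. A_30_P01019164 turned to -0.24 with slide as a block and on slide 1 alone, and A_30_P01025215 to -1.35 with the age label. The other changes were of values near 0. A_30_P01019800 went to -0.024 with normexp, -0.56 with the age label and -0.11 to 0.25 with 1 array left out. A_30_P01028521, the reverse probe at -0.060, went to 0.041 with quantile normalization with and without the filter, 0.032 with median centring, 0.40 with spike-in scaling, 0.091 with slide as a block and on slide 1 alone and -0.14 to 0.069 with 1 array left out. A_30_P01025127 went to 0.28 with spike-in scaling. No depth applies to arrays; 6800 members were too dim to test.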
